A study of Mus musculus with 4 samples.

Results

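The genes described here encode the folding machinery of the endoplasmic reticulum: Fkbp2, Hspa5, Hsp90b1, Calr, Canx, Pdia3, Pdia4, Pdia6, P4hb and Dnajc3. They were taken by name from the deposited array table, using rows that the platform annotation pairs with 1 gene symbol. Of the 10 genes, 9 had such a row, and each had only 1, out of 22180 genes with a row. Pdia4 shares its row with another gene and was not analysed here. All 9 lay above the limit for dim genes, a mean log2 signal of 4.835 over the arrays, and so were among the 16635 genes tested. The genes were named for their function, but Fkbp2 was selected on its large array difference in the same comparison, and Dnajc3 was known from it to lead a list of unfolded protein response genes. The differences of these 9 genes are therefore given as a description. Their intervals come from limma, which fitted the group difference, and reading whether one includes 0 equals an unadjusted test. For Fkbp2 and Dnajc3 that reading is no independent test, because their differences were known beforehand. The smallest limma adjusted p of the 9 genes was 0.744, for Fkbp2. That of Dnajc3 was 0.841.

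The arrays hold RNA of bone marrow cells sorted as Thy1+ LSK, which are cells without lineage markers but with Sca-1 and Kit on their surface, a population rich in blood stem cells. One group is Nol3-/- and carries the label MPN, taken here as myeloproliferative neoplasm. The other is Nol3+/+. Each has 2 arrays, and both groups are C57BL/6 mice of 11 to 18 months whose cells were neither cultured nor treated. The wording of the series title would also allow MPN in both genotypes. The labels give neither the sex of the animals nor whether an array holds 1 animal or a pool, so any p-value measures only the spread between these arrays.

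Proteins that enter the secretory pathway fold in the lumen of the endoplasmic reticulum. There the Hsp70 chaperone BiP (Hspa5), the Hsp90 chaperone Grp94 (Hsp90b1), the lectin chaperones calreticulin and calnexin, and the protein disulfide isomerases hold, oxidise and inspect new chains. When unfolded chains build up, the sensors Ire1, Perk and Atf6 start the unfolded protein response, which raises transcription of many of these chaperones through the endoplasmic reticulum stress element in their promoters. Blood stem cells are known for a low rate of protein synthesis. In human myeloproliferative neoplasms CALR is a recurrent driver gene, mutated in its last exon.

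The endoplasmic reticulum stress element, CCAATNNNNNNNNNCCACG, was searched for on both strands of the RefSeq promoter windows (GRCm38.p6), which run from 250 bases before to 50 bases after a transcription start. All 10 genes had a window, and Fkbp2 had 3 for its 3 starts. An exact match stood in the windows of 6 of the 10 genes. Over all genes, 39 of 32851 windows (0.119%) and 22 of 12850 tested genes with a window (0.171%) held one, the 6 included. The matches are shown because they are the sequence feature that most of the chaperone genes have and Fkbp2 lacks in these windows. Capitals mark the fixed letters, and each is read 5′ to 3′ on the strand that carries CCAAT.
Hspa5, chr2:34772025-34772043, plus strand: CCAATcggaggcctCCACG
Hsp90b1, chr10:86705638-86705656, minus strand: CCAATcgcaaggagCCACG
Hsp90b1, chr10:86705533-86705551, plus strand: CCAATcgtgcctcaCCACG
Calr, chr8:84847075-84847093, plus strand: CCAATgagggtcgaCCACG
Canx, chr11:50325800-50325818, minus strand: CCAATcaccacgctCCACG
Pdia6, chr12:17266491-17266509, plus strand: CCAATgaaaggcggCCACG
Dnajc3, chr14:118937827-118937845, plus strand: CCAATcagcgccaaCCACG

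Hsp90b1 thus held a pair of elements, in opposite orientations. The element nearest to its start was that of Hspa5, whose first base lay at -65, and the farthest was the upstream one of Hsp90b1, at -212. No exact match stood in the windows of Pdia3, Pdia4 and P4hb, nor in any of the 3 windows of Fkbp2. The second form of the element, ATTGGNCCACG, and the octamer TGACGTGG bound by unfolded protein response factors were absent from the windows of all 10 genes, against 12 (0.0365%) and 222 (0.676%) of all windows. Below, the Hspa5 window is set beside the window of the outermost Fkbp2 start, to show a promoter with the element and a promoter without it. Capitals again mark the fixed letters of the element.
Hspa5, chr2:34771840-34772139, plus strand: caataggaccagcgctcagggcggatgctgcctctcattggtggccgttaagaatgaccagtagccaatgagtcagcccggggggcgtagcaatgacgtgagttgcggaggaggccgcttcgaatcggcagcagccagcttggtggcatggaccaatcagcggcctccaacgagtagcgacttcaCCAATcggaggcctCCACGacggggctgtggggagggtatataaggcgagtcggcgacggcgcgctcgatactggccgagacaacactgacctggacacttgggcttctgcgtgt
Fkbp2, chr19:6980415-6980714, minus strand: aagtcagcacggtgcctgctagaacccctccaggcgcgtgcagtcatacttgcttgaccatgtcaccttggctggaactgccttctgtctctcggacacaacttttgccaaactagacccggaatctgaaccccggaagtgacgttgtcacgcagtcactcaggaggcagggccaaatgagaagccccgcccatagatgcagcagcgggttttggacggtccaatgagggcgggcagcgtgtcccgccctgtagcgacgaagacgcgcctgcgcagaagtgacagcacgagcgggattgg

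The windows of the 10 genes were rich in G and C, with 59.7% to 75.7% against a median of 52.7% over all windows. The pentamer CCAAT, which is contained in the stress element, occurred on either strand of 2 of the 3 Fkbp2 windows and of every window of the other genes, against 37.4% of all windows. These matches describe letters in a window and not binding.

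**Figure D1:**
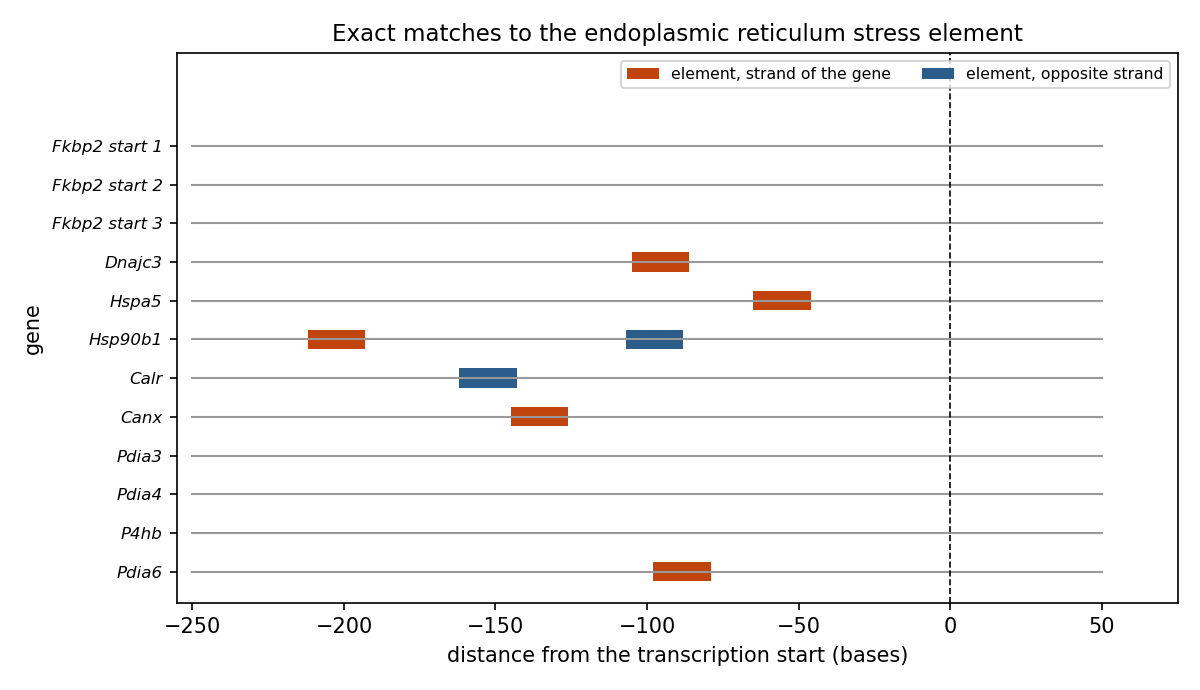
Exact matches to the endoplasmic reticulum stress element in the promoter windows of the 10 genes, by distance from the transcription start in bases. Boxes show 7 matches in 6 genes, coloured by strand, and the 3 Fkbp2 windows and those of Pdia3, Pdia4 and P4hb show none.

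The array values are log2 signals as the authors deposited them, and a difference of 1 log2 unit is a factor of 2 if the base of the logarithm, which is not stated, is 2. Fkbp2 encodes a peptidyl-prolyl isomerase of the FK506-binding family that resides in the endoplasmic reticulum. Its signal was 8.75 and 8.34 in the Nol3-/- MPN arrays, against 6.89 and 7.25 in the Nol3+/+ arrays. Both Nol3-/- MPN arrays lay above both Nol3+/+ arrays, with a gap of 1.09 log2 units between the closest arrays. The groups averaged 8.55 ± 0.29 and 7.07 ± 0.26 (mean log2 signal ± SD, n = 2 each). The difference was 1.47 log2 units with a limma standard error (SE) of 0.27, or 2.78-fold with a 95% interval from 1.72 to 4.49, and it was the value for which the gene was chosen. It ranked number 45 from the top among 16635 genes. Fkbp2 was the only gene of the 9 that was at least 2-fold higher with no overlap between the groups, which 0.872% of all genes tested were.

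Hspa5 encodes BiP, the central chaperone of the compartment and the usual readout of the unfolded protein response. Its signal was 8.79 and 8.96 in the Nol3-/- MPN arrays, against 9.15 and 9.54 in the Nol3+/+ arrays. Both Nol3-/- MPN arrays were the lower ones, although the gap of 0.18 log2 units between the closest arrays was smaller than the 0.39 that separated the Nol3+/+ replicates. The log2 difference was -0.47 (SE 0.23), with a 95% interval from -1.06 to 0.13. Fkbp2 and Hspa5 therefore lay at opposite ends of the 9 genes.

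Dnajc3 encodes P58IPK, a J-domain partner of BiP that also restrains the stress kinase Perk. It read 9.04 and 8.90 in Nol3-/- MPN, against 8.43 and 8.33 in Nol3+/+. The groups did not overlap, and the gap of 0.47 between the closest arrays exceeded the spread within either group. The log2 difference was 0.59 (SE 0.21), with a 95% interval from 0.06 to 1.13. That interval included 0 with the replicate number as a block (-0.02 to 1.21), without either Nol3-/- MPN array and without Nol3+/+ replicate 2. Dnajc3 and Hspa5, which work together in the lumen and whose windows both hold the stress element, thus lay on opposite sides of 0.

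Hsp90b1 encodes Grp94, which folds Toll-like receptors and integrins. Its arrays read 10.48 and 10.22 in Nol3-/- MPN, against 9.99 and 10.18 in Nol3+/+, so the groups were apart by only 0.03. Its log2 difference was 0.26 (SE 0.18) and its interval, from -0.20 to 0.72, included 0.

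Calr and Canx encode calreticulin and calnexin, the lectins that retain glycoproteins until they are folded. Calr read 8.45 and 8.16 in the Nol3-/- MPN arrays, against 8.23 and 7.97 in the Nol3+/+ arrays, and the groups overlapped (log2 difference 0.20, SE 0.24, 95% interval from -0.42 to 0.82). Canx read 10.75 and 10.73 in Nol3-/- MPN, against 10.62 and 10.45 in Nol3+/+. The groups did not overlap, the Nol3-/- MPN replicates lay 0.01 apart, and the log2 difference was 0.20 (SE 0.14, 95% interval from -0.16 to 0.56). Calr lies on chromosome 8 like Nol3 itself, with 134 tested genes between them in the RefSeq gene order.

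Pdia3, P4hb and Pdia6 encode protein disulfide isomerases, of which Pdia3 (ERp57) works with calreticulin and calnexin and P4hb is also the beta subunit of collagen prolyl 4-hydroxylase. Pdia3 read 9.89 and 9.86 in Nol3-/- MPN, against 10.19 and 9.80 in Nol3+/+. P4hb read 6.76 and 7.20 in Nol3-/- MPN, against 7.68 and 6.79 in Nol3+/+. Pdia6 read 6.64 and 7.04 in Nol3-/- MPN, against 7.38 and 6.95 in Nol3+/+. The groups overlapped for each of the 3. Their log2 differences were -0.12 for Pdia3, -0.25 for P4hb and -0.32 for Pdia6, and each interval included 0. In P4hb the Nol3+/+ replicates lay 0.90 apart, farther than the group means.

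**Figure D2:**
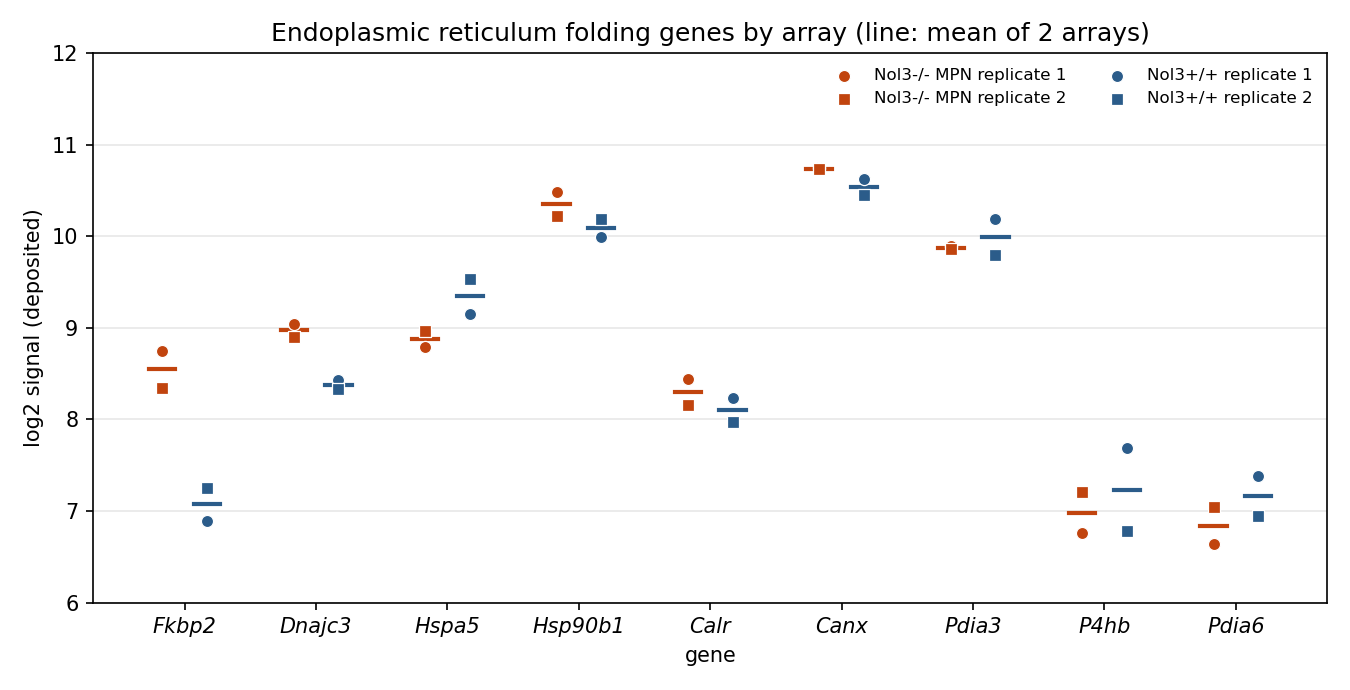
Deposited log2 signal of the 9 genes in each array, with Nol3-/- MPN (left of each pair) and Nol3+/+ (right). Points are arrays and lines are means of 2. Fkbp2 and Dnajc3 show a clear gap with Nol3-/- MPN above, Hspa5 a narrow one with Nol3-/- MPN below, and the disulfide isomerases overlap.

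As a group the 9 genes did not lie on 1 side. Of them 5 had a log2 difference above 0 and 4 below, a share of genes above 0 that was 51.7% over all genes tested. In 4, Fkbp2, Dnajc3, Hsp90b1 and Canx, both Nol3-/- MPN arrays lay above both Nol3+/+ arrays, as did 19.7% of all genes tested. Fkbp2 and Dnajc3 were known from this comparison beforehand, so that count is partly fixed by the choice of genes. Without Fkbp2 it was 3 of 8. In 1, Hspa5, both lay below, as did 15.9% of all. The median log2 difference of the 9 was 0.20, and that of the 8 without Fkbp2 was 0.04, against 0.01 over all genes tested. The median was 0.053 without Nol3-/- MPN replicate 1 and 0.068 without Nol3+/+ replicate 2. The count of genes below without overlap was 3 without Nol3-/- MPN replicate 2, where 35.1% of all genes lay below, and 4 when Nol3+/+ replicate 2 was left out, where 35.8% did. Over all genes tested, limma called 4 (0.0240%) at an adjusted threshold of 0.05, and 5.80% had an unadjusted p under 0.05. The 4 genes were the X-linked Xist, the Y-linked Gm20815, and the autosomal Snord92 and 4930539J05Rik, named because the count is small. No gene passed without Nol3-/- MPN replicate 1 or without replicate 2 of that group, where 572 and 818 had an unadjusted limma p under 0.05, and 18 and 39 passed without Nol3+/+ replicate 1 and replicate 2.

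The replicates of a group differed by a median of 0.26 log2 units in Nol3-/- MPN and 0.36 in Nol3+/+ over the 9 genes. The median size of the group difference was 0.26. For P4hb, Pdia3, Pdia6, Calr and Hsp90b1 the replicates of at least 1 group lay as far apart as the group means or farther. The array least like the rest was Nol3+/+ replicate 1, with a correlation across all genes tested of 0.899 and 0.908 with the Nol3-/- MPN arrays and 0.911 with its own replicate, against 0.929 and 0.945 between Nol3+/+ replicate 2 and the Nol3-/- MPN arrays. Genes are not independent replicates in such a correlation. Without Nol3+/+ replicate 1 the log2 difference was 1.29 for Fkbp2, 0.64 for Dnajc3, 0.16 for Hsp90b1, 0.33 for Calr, 0.28 for Canx, -0.11 for Pdia6 and -0.66 for Hspa5. For P4hb and Pdia3 it was 0.19 and 0.08, the other sign than with all arrays. Over the 4 ways of leaving out an array, the difference ranged from 1.27 to 1.68 for Fkbp2, from 0.52 to 0.67 for Dnajc3 and from -0.66 to -0.27 for Hspa5.

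**Figure D3:**
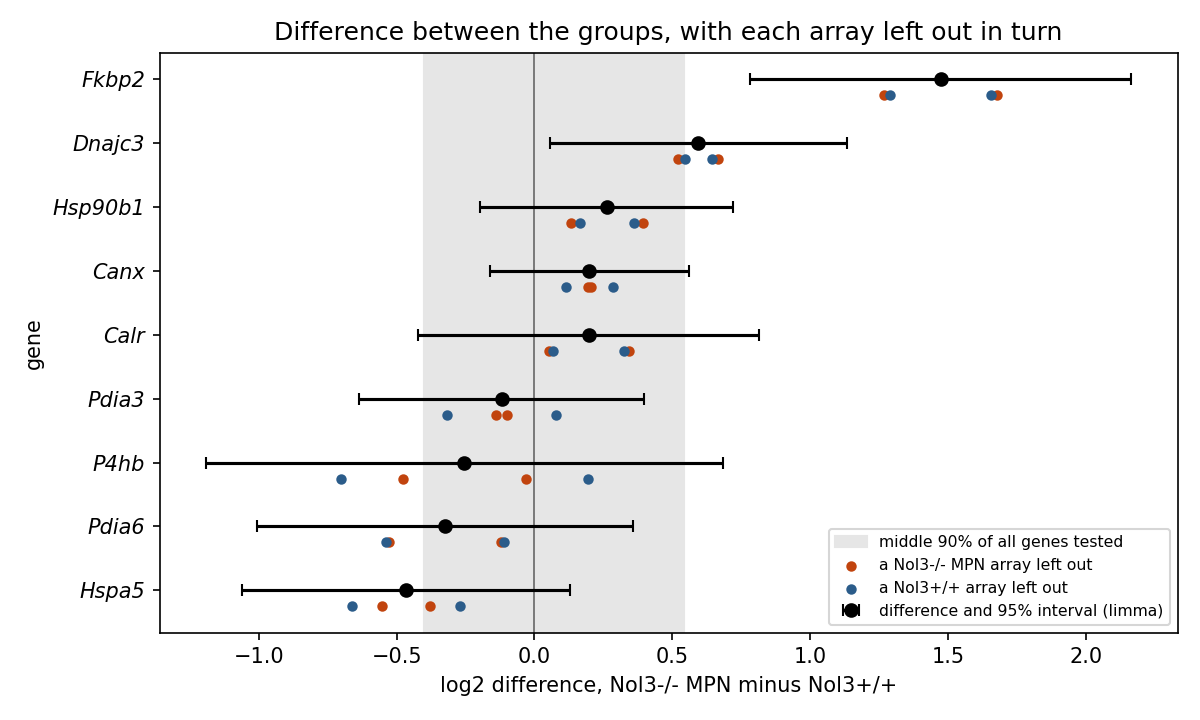
Log2 difference of each of the 9 genes, Nol3-/- MPN minus Nol3+/+, with its 95% limma interval (black) and the values with an array left out (coloured). The grey band holds the middle 90% of all genes tested. Fkbp2 and Dnajc3 lie right of the band, Hspa5 just left of it, and P4hb and Pdia3 cross 0 when Nol3+/+ replicate 1 is left out.

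All 9 genes are autosomal, but the groups also differed in sex-linked signal. Xist read 10.88 and 10.69 in Nol3-/- MPN, against 5.43 and 5.28 in Nol3+/+. Of 13 tested Y-linked genes, 11 were lower in Nol3-/- MPN without overlap. Genotype, the disease label and sex-linked signal split the arrays in the same way and cannot be told apart. The Nol3 row itself read 5.38 and 5.50 in Nol3-/- MPN, against 5.31 and 5.52 in Nol3+/+. The labels do not say which part of the gene was deleted, so this row is no check of the genotype.

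The markers of the sort were read too, but their signals cannot check the sorted fraction. Kit read 8.38 and 7.39 in Nol3-/- MPN, against 8.07 and 8.10 in Nol3+/+. Thy1 read 4.64 and 5.24 in Nol3-/- MPN, against 4.74 and 5.02 in Nol3+/+, close to the limit for dim genes, and Ly6a (Sca-1) was not analysed here. Among markers of other cells, 10 of 11 tested granulocyte and monocyte genes had a log2 difference below 0, as had 48.3% of all genes tested, and 6 were lower without overlap, against 15.9% of all. The remaining gene, Adgre1, differed by 0.37 and was the only 1 higher without overlap, against 19.7% of all. Among the 6 lower genes, S100a8 and S100a9, the subunits of calprotectin, and Retnlg, a resistin-like gene of neutrophils, differed by -0.86, -0.83 and -1.46. Retnlg read 4.83 and 4.47 in the Nol3-/- MPN arrays, values under the limit set for the mean of dim genes. Without Nol3+/+ replicate 2 the differences of S100a8 and Retnlg were both -0.44. The signals of that list were also summed on a linear scale, over its 14 genes with a row, dim ones included. The sums were 986 and 913 in Nol3-/- MPN, against 1182 and 1712 in Nol3+/+. Bright genes such as S100a9 weigh most in such a sum. The summed signals of B and plasma cell markers, cells with a large endoplasmic reticulum, overlapped. Over the 10 genes with a row they were 404 and 418 in Nol3-/- MPN, against 396 and 424 in Nol3+/+. Of 9 tested markers 2 were higher and 3 lower without overlap. Jchain, the joining chain of secreted antibodies, differed by -0.65, Cd79b, a B cell receptor subunit, by 0.50 and Mzb1, a plasma cell chaperone partner, by -0.25. Their part in the results was not tested. In such bulk samples fewer cells of a type and less RNA per cell cannot be told apart.

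Erythroid markers had a median log2 difference of -0.07, with the blood group gene Rhd at -0.35 and the anion exchanger gene Slc4a1 at -0.10, and myeloid progenitor markers 0.19, with the granule protease genes Prtn3 and Ctsg at 0.50 and 0.25 and the transcription factor gene Cebpe at -0.20. Mast cell and basophil markers had a median of 0.18, with the protease gene Prss34 at 0.07. T and NK cell markers had -0.02, with Nkg7 at 0.86, Ncr1 at -0.19 and Cd8a at 0.13, and stromal and endothelial markers 0.06, with Col3a1 at -0.35, Sparc at 0.31 and Pdgfrb at -0.20. In the sorted fraction's own list, the median was 0.00, with Cd48 at 1.41, Hlf at -0.83 and Mecom at 0.31. Without Nol3+/+ replicate 1, Cd48 was at 0.74 and Mecom at 0.06. Of the lists in this paragraph, the medians of all but the myeloid progenitor list took both signs when each array was left out in turn, and with a Nol3+/+ array left out that of the mast cell and basophil list was -0.10 (replicate 1 omitted) and 0.57 (replicate 2 omitted).

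The other genes of the compartment were read from lists drawn up by function. Together 9 lists gave 117 tested genes, of which limma called 0 at the adjusted threshold. At an unadjusted p under 0.05 there were 10 higher and 2 lower genes, against 3.73% and 2.07% of all genes tested. Without overlap, 38 (32.5%) were higher and 16 (13.7%) lower, against 19.7% and 15.9% of all genes tested, and the median log2 difference was 0.08. The 117 genes were brighter than all genes tested, with array medians of 6.43 to 6.50 against 5.72 to 5.77. With the limit for dim genes at the 50th percentile, 21.3% and 14.8% of all genes were higher and lower without overlap. The shares over all 16635 genes tested are the background for the counts of each list that follows. The smallest limma adjusted p among the 117 was 0.841, as it was among the chaperones of the cytosol and mitochondria.

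Other prolyl isomerases of the endoplasmic reticulum were the closest relatives of Fkbp2 in function. Of 5 tested, 4 had a log2 difference above 0 and 2 were higher without overlap, the cyclophilin genes Ppib at 0.19 and Ppic at 0.10. Fkbp7 was at 0.61, Fkbp11 at 0.31 and Fkbp9 at -0.13, each with overlapping groups. FK506-binding proteins outside the compartment had 7 tested members between -0.09 and 0.25, with 3 higher without overlap, Fkbp3 at 0.25, Fkbp15 at 0.17 and Fkbp5 at 0.11. Fkbp3 was at 0.06 without Nol3+/+ replicate 1, and Fkbp15 at 0.06 without Nol3+/+ replicate 2. No other tested gene of either list differed by as much as Fkbp2. Because Fkbp2 was chosen for its large difference, that does not set it apart from its relatives.

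Of 13 tested disulfide isomerases and oxidases outside the 9 genes, 5 were higher and 2 lower without overlap, with a median of 0.08. Erp44, which retrieves oxidases and unassembled antibodies from the early Golgi, differed by 0.56. Ero1a, the oxidase that recharges P4hb, differed by -0.47 and the membrane-bound thioredoxin relative Tmx4 by -0.46. Among 15 cofactors of BiP and J proteins, 4 were higher and 3 lower without overlap, with a median of 0.09 that was -0.09 without Nol3-/- MPN replicate 2. Hyou1, a nucleotide exchange factor of BiP, read 6.45 and 6.36 in Nol3-/- MPN, against 5.79 and 5.96 in Nol3+/+ (log2 difference 0.53). Dnajc10, a J protein that reduces disulfides, differed by 0.62. Dnajb9, a J protein induced by the Ire1 branch, differed by -0.41. Of further genes of this list, Dnajb11, Sdf2l1 and Manf differed by -0.31, -0.26 and -0.07, and Creld2 by 0.13. These examples do not stand for stress-induced genes as a class.

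In the calnexin and calreticulin cycle, 2 of 7 tested genes were higher and 1 lower without overlap. Lman1, a cargo receptor for glycoproteins, differed by 0.46 (0.09 without Nol3-/- MPN replicate 1). Its partner Mcfd2 differed by -0.22 and Prkcsh, the beta subunit of glucosidase II, by 0.29. The glucosyltransferase Uggt1, which returns unfolded glycoproteins to calnexin, was at 0.07. Among 15 sensors and factors of the unfolded protein response, 5 were higher and 1 lower without overlap, with a median of 0.02. The sensors Ern1 (Ire1) and Atf6 were both at -0.03. Eif2ak3 (Perk) was at 0.29 without overlap, but at 0.06 when Nol3-/- MPN replicate 1 was left out. The transcription factors Xbp1, Atf4 and Ddit3 (Chop) were at 0.02, 0.13 and -0.11. The proteases that cleave Atf6, Mbtps1 and the X-linked Mbtps2, differed by 0.26 and 1.31, and Mbtps2 read 8.46 and 8.16 in Nol3-/- MPN, against 6.26 and 7.74 in Nol3+/+, so that its difference was 0.57 without Nol3+/+ replicate 1.

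Genes of the degradation machinery lay on both sides of 0, with 3 of 18 tested genes higher and 6 lower without overlap. Ngly1, the cytosolic enzyme that strips glycans from exported chains, read 7.83 and 7.42 in Nol3-/- MPN, against 6.19 and 6.66 in Nol3+/+ (log2 difference 1.20). Derl2, a membrane protein of the export channel, differed by 0.77. Selenos, which recruits the ATPase Vcp to the membrane, differed by -0.73, and Herpud1 of the same list was at -0.31.

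At the entry to the compartment, 4 of 21 tested translocon and signal peptide genes were higher and 2 lower without overlap. Spcs2, a subunit of the signal peptidase, differed by 1.05 and the catalytic subunit gene Sec11a by 0.28. Without Nol3+/+ replicate 1, Spcs2 and Sec11a differed by 0.52 and 0.09. Srp68, of the signal recognition particle, differed by 0.37. The oligosaccharyltransferase attaches glycans to chains as they enter. It had 7 of 12 genes higher without overlap and 0 lower, against 19.7% and 15.9% of all genes, and a median of 0.25 that lay between 0.24 and 0.41 with an array left out. At an unadjusted limma p under 0.05 there were 3 higher and 0 lower genes in it, against 3.73% and 2.07% of all, and at the adjusted threshold limma called 0. Ddost read 6.13 and 6.56 in Nol3-/- MPN, against 5.41 and 5.73 in Nol3+/+ (log2 difference 0.78), Krtcap2 differed by 0.72 and the X-linked Magt1 by 0.96 (0.54 without Nol3+/+ replicate 1). Its catalytic subunits Stt3a and Stt3b were at 0.04 and 0.40.

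Most soluble residents are returned from the Golgi by KDEL receptors and the COPI coat. Of 11 genes of this route, 6 were higher and 1 lower without overlap, with a median of 0.15. The coat subunit Copb1 differed by 0.996 (0.62 without Nol3+/+ replicate 1), the sorting receptor Rer1 by 0.46 and Kdelr2 by 0.32, while Kdelr3 was at -0.31. For chaperones of the cytosol and mitochondria, 9 of 29 tested genes were higher and 1 lower without overlap, with a median of 0.19 that was 0.10 without Nol3-/- MPN replicate 2. The chaperonin subunit Tcp1 differed by 0.72, the Hsp90 partner Ptges3 by 0.59 and the J protein Dnaja2 by 0.57. Without Nol3+/+ replicate 1, Ptges3 and Dnaja2 differed by 0.29 and 0.19.

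**Figure D4:**
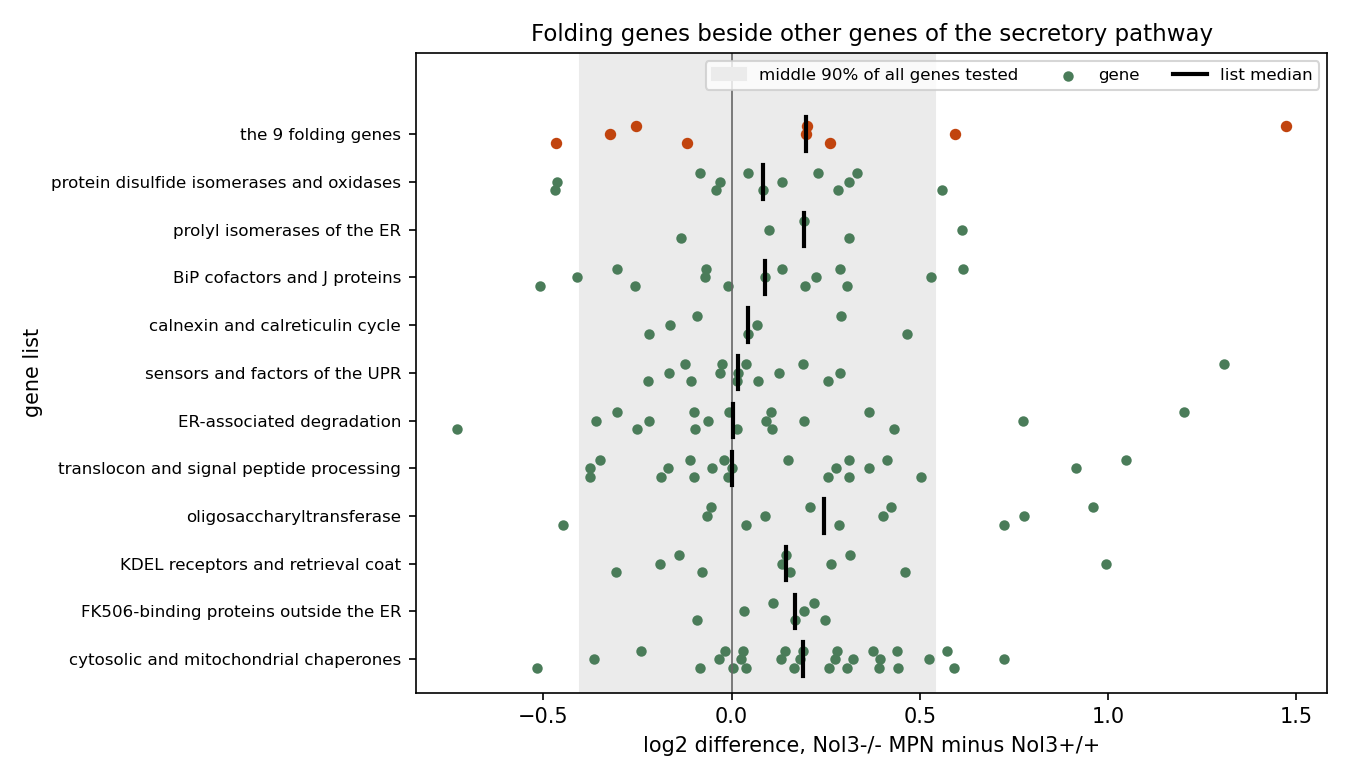
Log2 differences of single genes (points), Nol3-/- MPN minus Nol3+/+, by gene list, with list medians (bars) and the middle 90% of all genes tested (grey). The 9 folding genes (top) spread on both sides of 0, and only Fkbp2 and Dnajc3 lie right of the band. List medians lie between 0.00 and 0.25.

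The stress element gave another way to group genes, by sequence rather than by function. Of 12850 tested genes with a promoter window, 22 held an exact match, 6 of them folding genes. The other 16 had a median log2 difference of 0.07, with 6 higher and 2 lower without overlap, against 19.7% and 15.9% of all genes tested. Shares over all genes tested here also include genes without a promoter window. Limma called 0 of the 16 at the adjusted threshold and 1 at an unadjusted p under 0.05, against 5.80% of all genes tested. That 1 was Hnrnpa3, an RNA-binding protein gene, named after its value was seen. Those with a known role in the compartment were Creld2 at 0.13, Ero1b at 0.04, the glycan-assembly enzyme gene Alg12 at 0.15 and the ubiquitin ligase gene Syvn1 at -0.10. Within the folding genes, the 6 with the element ran from -0.47 for Hspa5 to 0.59 for Dnajc3. The 3 measured genes without it in their windows were Fkbp2, at 1.47, and Pdia3 and P4hb, at -0.12 and -0.25.

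The genes whose values over the 4 arrays lay nearest to those of Fkbp2, by Euclidean distance after centring each gene on its mean, were Irgm2, a GTPase gene induced by interferon, at a distance of 0.18 log2 units, the X-linked histone demethylase gene Kdm6a at 0.28, Ngly1 at 0.28, Atp6v1c1, of the proton pump of lysosomes, at 0.29, and Rpsa, a ribosomal protein gene, at 0.32. They were picked from all genes tested for this likeness, so a similar split between the groups follows from the choice. Shared regulation was not tested. On chromosome 19, the tested neighbours of Fkbp2 in gene order were Plcb3 and Ppp1r14b on 1 side and Vegfb and Dnajc4 on the other. Their log2 differences were -0.11, 0.42, 0.17 and -0.19, with limma adjusted p-values between 0.881 and 0.948. Ppp1r14b, the nearest on its side, read 6.74 and 6.14 in Nol3-/- MPN, against 5.64 and 6.40 in Nol3+/+, and its groups overlapped.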

How the data were processed

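Thy1+ LSK bone marrow RNA of 2 Nol3-/- MPN and 2 Nol3+/+ samples was amplified by single-primer isothermal amplification and put on whole-transcript Affymetrix arrays, per the labels' protocols. The authors deposited 1 table of normalized values, treated here as log2 signals, for 41345 rows and 4 arrays. Values run from 2.84 to 13.5, with array medians of 5.35 to 5.39. Affymetrix Expression Console and Transcriptome Analysis Console are named per the submitters' processing notes, and the normalization method is not given in the sources used here. Rows with several symbols (1814) were left out. Of several rows of a gene the one with the highest mean was used, and genes under the 25th percentile of mean signal were left out (5545). The group difference was fitted in R 4.3.3 by limma 3.58.1, using lmFit and then eBayes with trend on mean signal (2 residual and 3.19 prior degrees of freedom), with Benjamini-Hochberg adjustment over 16635 genes. The fit was tested on simulated data. The number of arrays limits the precision. Promoter windows came from RefSeq (GRCm38.p6) and were searched as printed. Array probes have no coordinates here. Members and gene lists were chosen with earlier results of these data known. From each list the text names up to 3 genes with the largest difference among those without overlap between groups, and further genes of a list serve as examples of its function. Alternatives covered leaving out each array, a block for the replicate number, another limit for dim genes, normalization, variance models, array weights and the mean of a gene's rows.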

Additional observations from a re-analysis of the deposited data

How the results depend on the processing

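Among the log2 differences of the 9 folding genes under 13 alternatives, 2 turned sign, P4hb (0.19) and Pdia3 (0.08), both without Nol3+/+ replicate 1. Another limit for dim genes, a block, another variance model or array weights left these differences as they were, which the design fixes, and with 2 arrays per group leaving an array out cannot move them by an SD, so how little they moved does not measure stability. With an array left out, the median log2 difference of the 9 members ranged from 0.053 to 0.21, the count of those higher without overlap from 4 to 6 and of those lower from 1 to 4, while 31.9% to 37.7% and 26.3% to 35.8% of all genes then lay higher and lower without overlap, and the genes past the limma adjusted threshold from 0 to 39. With the replicate number as a block, limma called 0 of all genes in place of 4 (972 at an unadjusted p under 0.05). The labels do not say that the numbers pair samples, and the deviations of same-numbered arrays correlated at 0.05 across genes. Under the block the 95% interval of Dnajc3 included 0 (-0.02 to 1.21). Quantile normalization and median centring moved the median of all genes by at most 0.01, which follows from array medians that already lay close together. Under quantile normalization 5 folding genes in place of 4 were higher without overlap, and 21.1% of all genes. Of 53 named genes of the lists, 32 moved by over 1.5 times with an array left out. With 2 arrays per group and no detection calls, small differences cannot be separated from array spread.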
